A study of Mus musculus with 2 samples.

Results

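Transcripts of the translation initiation factors (eIFs) and elongation factors (eEFs) were measured in the MEL line, immortalized murine erythroleukemia cells arrested as erythroid precursors. Members were the protein-coding genes whose GENCODE mouse symbol begins with Eif or Eef and a digit of 1 to 6, without the Eif2ak kinases and Eif2s3y. The annotation held 63 such genes, and 62 of them had a value in both libraries, of 43346 genes and 21474 protein-coding genes in all. The 63rd, Eef1akmt4, was not analysed here. The labels give 1 group of 2 biological replicates, with no genotype, dose or time to compare, so the values below describe levels and the spread between the replicates. Polyadenylated RNA was sequenced from single ends, and the files hold 67735380 expected counts on genes in replicate 1 and 79923143 in replicate 2. Of 12 erythroid genes, 11 reached a level of 1 TPM (transcripts scaled by length to a fixed sum per library) in both replicates, with Slc4a1 below it at 0.48 and 0.26 TPM and summed levels of 1184 and 1973 TPM. Of 8 genes that mark other cell types, 1 did so (Gfap, at 1.17 and 1.85 TPM), and Alb, Cd3e and Irf8 were at 0.

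Initiation places a ribosome on the start codon of an mRNA. The factor eIF2 brings the initiator tRNA to the small ribosomal subunit, eIF3 and the eIF1 family hold the scanning complex together, and the eIF4 group recruits the capped mRNA. Elongation then runs on eEF1A, which delivers each aminoacyl-tRNA, on eEF1B, which recharges eEF1A with GTP, and on eEF2, which moves the ribosome along. Erythroid cells depend heavily on this machinery because they make globin in bulk, and heme supply is known to act on it through the phosphorylation of eIF2.

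The factor genes stood at high levels in MEL cells. A gene was called detected at 1 TPM or more in both replicates, and 58 of 62 members met this (93.5%), against 46.8% of all protein-coding genes. At 100 TPM or more in both replicates stood 35 members (56.5%), against 5.38% of protein-coding genes. The median member had 190.01 TPM in replicate 1 and 155.5 TPM in replicate 2, against 22.3 and 22.2 TPM for the detected protein-coding genes. Together the 62 genes held 3.31% and 3.10% of the TPM on genes (3.21% ± 0.148, SD, n = 2) and 3.67% and 3.63% of the expected counts. The levels of members had a Pearson correlation of log2(TPM + 1) of 0.968 between the libraries across the 62 genes, which are not independent replicates. These genes run from 0 to 11657 TPM in replicate 1, with 3 at 0 in both libraries, and so wide a range favours a high correlation.

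Of the 100 highest protein-coding genes by mean TPM, 7 were members, Eef1a1, Eif5a, Eef2, Eef1b2, Eef1g, Eif3g and Eif1, and the top 500 held 27. At the other end, Eef1a2, Eif4e1b and Eif4e3 had no count in either library. Their true share of counts on genes could be as high as 4.43e-06% in replicate 1 and 3.75e-06% in replicate 2, the upper limit set by 3 counts, which covers counting error only. The threshold ran between Eif4ebp3, with 1.99 and 3.64 TPM, and Eef1akmt3, with 0.82 and 1.75 TPM. Since the RNA came from a population of cells, fewer transcribing cells and less RNA per cell cannot be told apart.

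**Figure D1:**
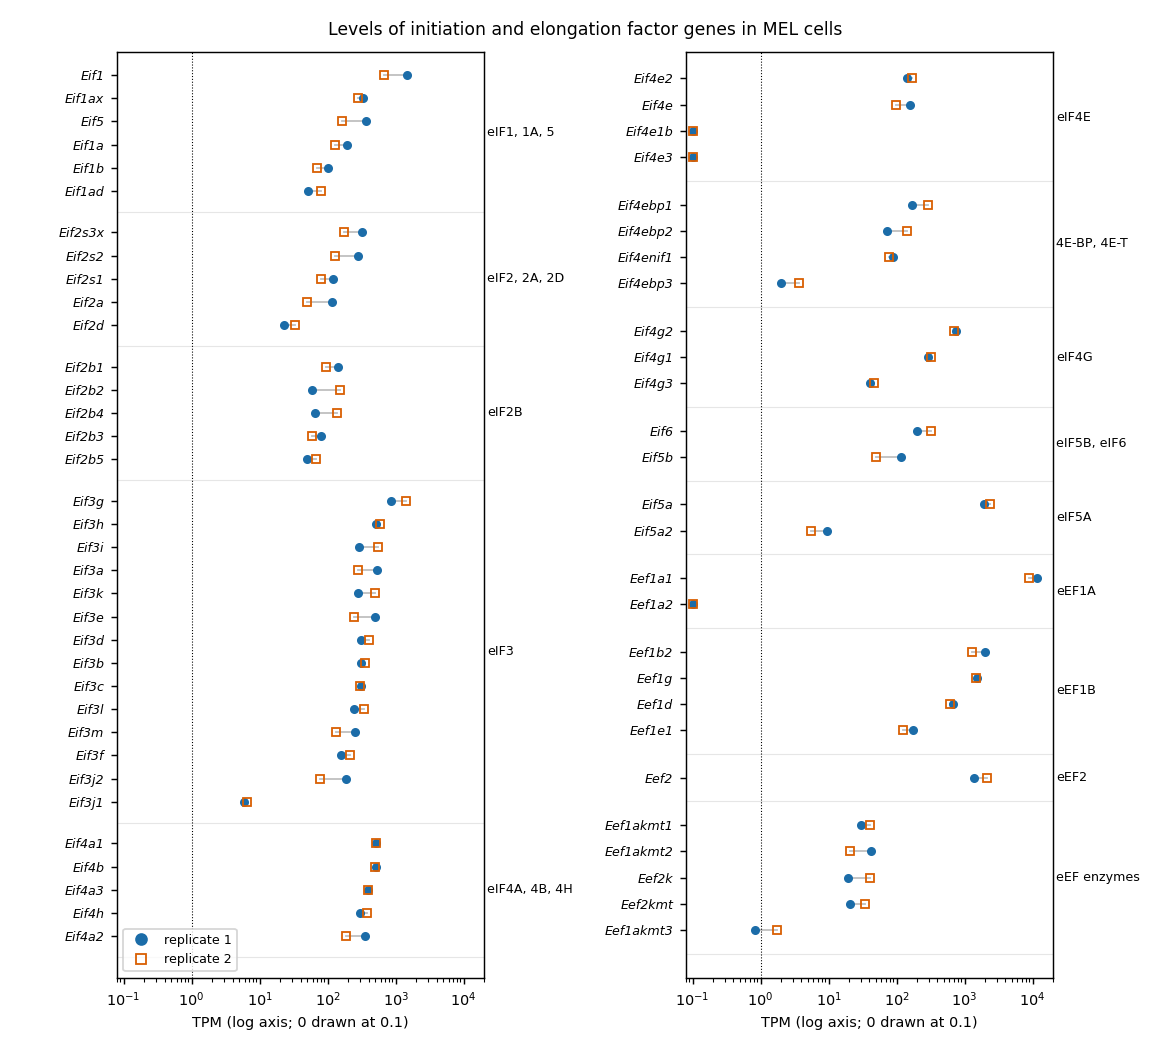
TPM of each of the 62 factor genes in replicate 1 (filled circles) and replicate 2 (open squares) on a log axis, grouped by factor, with a dotted line at 1 TPM and genes at 0 drawn at 0.1. Eef1a1 sits far to the right at 11657 and 8962 TPM, and 3 genes, Eef1a2, Eif4e1b and Eif4e3, lie at 0.

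An elongation factor gene, Eef1a1, was by far the most abundant member. Eef1a1 (chr9:78478449-78489151, mm10), which encodes the carrier of aminoacyl-tRNA, had 11657 TPM in replicate 1 and 8962 TPM in replicate 2. It alone held 36.3% and 30.8% of the TPM of all members and ranked highest of all protein-coding genes. Eef1a2 (chr2:181147653-181157014), which encodes the form of this protein known from muscle and neurons, had 0 counts in both. With 3 counts per library as the floor for Eef1a2, Eef1a1 was at least 358723-fold higher. The transcripts of Eef1a1 and Eef1a2 shared no stretch of 45 bases, the read length that the files imply. No read of that length could thus match both without a mismatch, and matches with mismatches were not examined.

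The exchange factor eEF1B was carried by 3 abundant transcripts of unequal level. Eef1b2, the catalytic alpha subunit, had 2029 and 1282 TPM, Eef1g, the scaffold subunit gamma, had 1529 and 1474 TPM, and Eef1d, the catalytic delta subunit, had 668 and 617 TPM. Eef1g averaged 1502 ± 38.9 TPM and Eef1d 642 ± 36.0 TPM (SD, n = 2 each). Within Eef1g the shares shifted, as the retained-intron model Eef1g-205 held 41.6% and 1.57% and coding transcripts had 877 and 1210 TPM. Eef1b2 exceeded Eef1d by 2.51-fold, as a log2 ratio of Eef1d over Eef1b2 of -1.33 ± 0.387 (SD, n = 2), just past the limit of 1.29 described further on. It did not pass without replicate 1 (-1.06) or on coding transcripts alone, where Eef1b2 had 1176 and 363 TPM and Eef1d had 646 and 574 TPM. Eef1e1, which encodes a small protein of the aminoacyl-tRNA synthetase complex related to eEF1B subunits, was lower at 173 and 126 TPM.

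Eef2 (chr10:81176631-81182498), the translocase, had 1399 TPM in replicate 1 and 2139 TPM in replicate 2. The enzymes that modify the elongation factors were all far less abundant. The kinase gene Eef2k, whose product inhibits eEF2 by phosphorylation, had 19.6 and 40.9 TPM, so that Eef2 exceeded it 60.8-fold. The methyltransferase genes Eef2kmt, with 20.8 and 34.4 TPM, Eef1akmt1, with 30.1 and 40.7 TPM, and Eef1akmt2, with 41.7 and 20.6 TPM, lay in the same range. The order of these 4 genes differed between replicates, so none of them stood above the others in both.

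The eIF5A paralogs also stood far apart. This factor, the only protein known to carry hypusine, helps ribosomes through difficult peptide bonds. Eif5a (chr11:69916714-69921958) had 1920 and 2370 TPM, and Eif5a2 (chr3:28781276-28798846) had 9.55 and 5.56 TPM. The ratio was 289-fold, a log2 ratio of 8.17 ± 0.759 (SD, n = 2). Replicate 1 was the lower one for Eif5a and the higher one for Eif5a2.

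Ratios within 16 pairs of genes were compared with the spread between libraries. The pairs were of related genes, except Eef2 over Eef2k, a factor and its kinase. A pair was counted as past the limit when its log2 ratio of TPM (pseudocount 0.1) had 1 sign in both replicates and averaged over 1.29 in size. That value, a 2.44-fold difference, is the 95th percentile of the absolute log2 TPM ratio between the replicates over 10045 detected protein-coding genes. By this limit 11 pairs were counted and 5 were not. No exact test over samples could pass 0.05, since the smallest p of an exact sign-flip test with 2 replicates is 0.5. The limit is the spread of single genes between libraries, not the spread of each ratio, which the SD gives. The pairs nearest to the limit were Eif1a over Eif1ad at 1.30 ± 0.859 and Eif4g1 over Eif4g2 at -1.24 ± 0.21 (SD, n = 2 each).

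**Figure D2:**
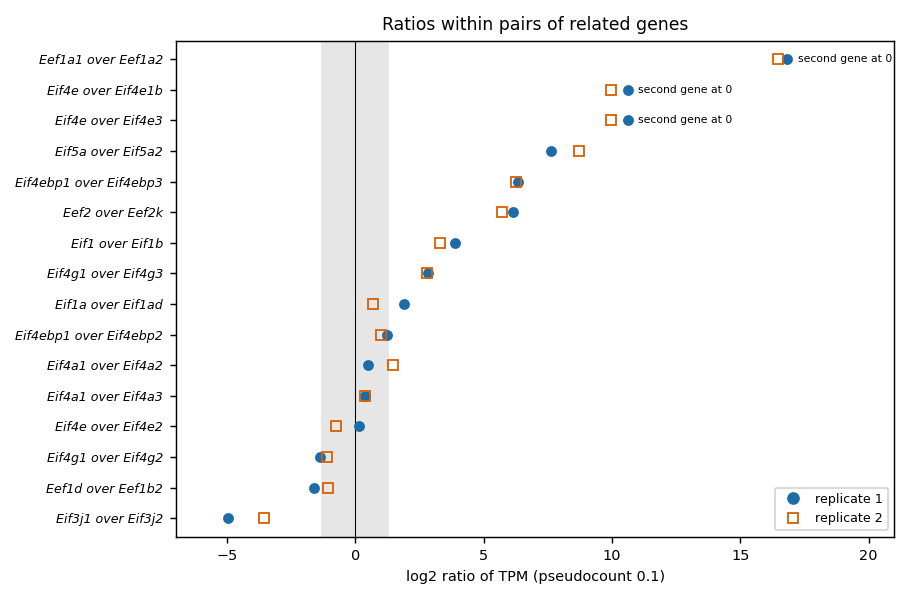
Log2 ratio of TPM (pseudocount 0.1) within 16 pairs of genes in replicate 1 (filled circles) and replicate 2 (open squares), with the grey band marking ratios up to 1.29 in size. The pairs are of related genes, except Eef2 over Eef2k. Eef1a1 over Eef1a2 lies at the far right and Eif3j1 over Eif3j2 at the far left, and 1 pair, Eif4e over Eif4e2, changes sign between replicates. Ratios against a gene at 0 depend on the pseudocount.

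The factors that find the start codon showed a wide range. Eif1, which keeps the scanning ribosome from initiating at poor sites, had 1468 TPM in replicate 1 and 680 TPM in replicate 2, and its paralog Eif1b had 100.4 and 69.4 TPM. The ratio of 12-fold passed the limit (log2 ratio 3.58 ± 0.408, SD, n = 2), and on protein-coding transcripts alone, an alternative chosen after seeing the data, it was 5.21-fold (2.38 ± 0.676). The expected counts of Eif1 were much closer, at 38985 and 41244, and the difference in TPM went with its transcripts, described further on. For eIF1A, which acts with eIF1, Eif1ax on the X chromosome had 329 and 283 TPM, and the autosomal Eif1a on chromosome 18 had 196 and 130 TPM. On coding transcripts alone this order was reversed in both replicates. There Eif1ax had 148 and 47.0 TPM, while Eif1a kept its 196 and 130 TPM. Eif1ad, which encodes a protein with an eIF1A domain, had 52.0 and 80 TPM, and 15.3% of its 45-base windows also occur in the overlapping gene Banf1. Eif5, the GTPase activator that acts on eIF2 at the start codon, had 373 and 160 TPM, well over 2-fold apart.

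The genes of the eIF2 trimer lay within 2.67-fold of each other in each library by the deposited values. Eif2s3x, the GTP-binding gamma subunit, had 322 and 172 TPM, Eif2s2, the beta subunit, had 278 and 129 TPM, and Eif2s1, the alpha subunit that stress kinases phosphorylate, had 121 and 80.4 TPM. By the deposited values the order gamma, beta, alpha was the same in both replicates, with 2.67-fold and 2.14-fold between the highest and the lowest, but in replicate 1 it changed when copies were added, as given below. All 3 were higher in replicate 1. Eif2a and Eif2d, which encode alternative carriers of initiator tRNA, had 115 and 50.3 TPM and 22.7 and 33.1 TPM.

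Eif2s2 has a near-identical copy elsewhere in the genome with counts of its own. The coding sequence of Eif2s2 (chr2:154871410-154892935, minus strand) and the processed pseudogene Gm9892 (chr8:52196065-52197056, minus strand) differ at 5 of 992 aligned bases. The stretches below, coding bases 539 to 628 in the mm10 build with the differing bases in capitals, hold 2 of these 5 differences and are shown because a read between them matches both genes.
Eif2s2: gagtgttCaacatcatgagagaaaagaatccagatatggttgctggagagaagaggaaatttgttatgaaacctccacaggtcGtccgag
Gm9892: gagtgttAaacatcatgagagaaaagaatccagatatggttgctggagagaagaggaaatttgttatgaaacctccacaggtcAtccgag
Eif2s2 had 31638 and 18297 expected counts, and Gm9892 had 9362 and 163. The copy took 22.8% of the summed count in replicate 1 and 0.885% in replicate 2, so the share of the copy was not the same in the libraries. Whether the reads on Gm9892 came from it or from Eif2s2 was not tested. With copies added to the 3 subunits, an alternative chosen after seeing the data, Eif2s2 led in replicate 1 with 493 TPM, against 325 for Eif2s3x and 121 for Eif2s1, a 4.07-fold range. In replicate 2 the order held, with 132 TPM for Eif2s2 and 172 for Eif2s3x.

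The 5 subunits of eIF2B, which reloads eIF2 with GTP, lay within 2.89-fold of each other in replicate 1 and 2.56-fold in replicate 2. Their levels ran between 49.4 TPM (Eif2b5) and 143 TPM (Eif2b1) in replicate 1 and between 58.9 TPM (Eif2b3) and 151 TPM (Eif2b2) in replicate 2. The highest mean was 2.00-fold above the lowest, less than in either library. Eif2b2 had 59.4 and 151 TPM and Eif2b4 had 65.9 and 138 TPM, both higher in replicate 2. Eif2b1, with 143 and 93.2 TPM, was higher in replicate 1 by TPM only. Its expected counts were 7496 and 9430, a log2 ratio of 0.013 once scaled. On coding transcripts alone it had 60.9 and 77.7 TPM. The retained-intron model Eif2b1-205 held 57.4% and 16.5% of its TPM, and Eif2b2-206 held 22.3% and 48.7% of that of Eif2b2. The order of the subunits by TPM was thus not the same in the libraries.

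The eIF3 complex, the largest initiation factor and the platform that binds the small subunit, had most of its subunits at like levels. Without the loosely bound eIF3j, the 12 core subunits had a median of 312 TPM in replicate 1 and 348 TPM in replicate 2. Of these, 11 had a mean within 2-fold of the core's median, and the exception was Eif3g, an RNA-binding subunit needed for scanning, with 853 and 1412 TPM. In replicate 2, Eif3m was also more than 2-fold from the median. The lowest were Eif3f at 156 TPM in replicate 1 and Eif3m at 131 TPM in replicate 2. The highest stood 5.47-fold and 10.8-fold above the lowest, and 6.14-fold over the means. Below Eif3g the order was loose, with a Spearman correlation of TPM between replicates of 0.24 over the other 11 genes (0.41 over all 12).

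Subunits of eIF3 did not lie on 1 side between the libraries. Eif3a, the large scaffold subunit, had 528 and 277 TPM, Eif3e had 492 and 241 TPM and Eif3m had 257 and 131 TPM, all higher in replicate 1. Eif3i had 294 and 552 TPM, Eif3k had 278 and 505 TPM and Eif3l had 241 and 339 TPM, all higher in replicate 2. Eif3b, Eif3c and Eif3h differed little, with Eif3c the closest at 314 and 299.8 TPM. Eif3b and Eif3c are, with Eif3a, parts of the core that yeast shares.

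The eIF3j gene pair was divided unevenly, and its reads are hard to assign. Eif3j2, on chromosome 18, had 184 and 76.5 TPM, and Eif3j1 on chromosome 2 had 5.84 and 6.46 TPM. The log2 ratio of Eif3j1 over Eif3j2 was -4.25 ± 0.997 (SD, n = 2), a 19.0-fold excess of Eif3j2. However, 91.5% of the 45-base windows of Eif3j2 transcripts also occur in transcripts of Eif3j1, and 36.9% of the windows of Eif3j1 occur in Eif3j2, so the ratio is uncertain.

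The eIF4A helicases, which unwind the mRNA leader, and their helpers had means within 1.88-fold of each other. Eif4a1 had 510 and 517 TPM, Eif4b had 520 and 502 TPM, and Eif4h had 302 and 385 TPM. Eif4a3, whose product sits in the exon junction complex, had 393 and 397 TPM. Eif4a2, the paralog of Eif4a1, had 359 and 188 TPM. Eif4a1 over Eif4a2 gave a log2 ratio of 0.98 ± 0.677 and Eif4a1 over Eif4a3 one of 0.38 ± 0.0037 (SD, n = 2 each), both within the limit. On coding transcripts alone, Eif4a1 over Eif4a2 was 2.21 ± 0.913 (SD, n = 2) and passed the limit of 1.34 found there.

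These ratios changed with how reads of Eif4a1 were divided. The processed pseudogene Eif4a-ps4 (chr1:60703932-60705149, plus strand) matches the coding sequence of Eif4a1 (chr11:69666936-69672423, minus strand) at all but 1 of 1218 bases, with 684 identical bases in a row. The stretches below are coding bases 489 to 578 in the mm10 build, and the capital marks the single base that differs.
Eif4a1: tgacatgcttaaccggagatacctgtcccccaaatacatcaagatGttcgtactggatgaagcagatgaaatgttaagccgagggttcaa
Eif4a-ps4: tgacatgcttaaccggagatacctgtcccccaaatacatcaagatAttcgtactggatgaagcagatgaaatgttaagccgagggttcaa
Eif4a1 had 38643 and 49060 expected counts, and Eif4a-ps4 had 48785 and 34117. The pseudogene thus took 55.8% of the summed count in replicate 1 and 41.0% in replicate 2, and its level was 902 and 494 TPM, above its parent gene in replicate 1 and close to it in replicate 2. The posterior SD of the count was 379 for Eif4a1 and 379 for Eif4a-ps4 in replicate 1, a small fraction of either count. That SD describes the division within the model and does not show which gene the reads came from, which was not tested. With the copies added to their parent genes, an alternative chosen after seeing the data, Eif4a1 passed the limit against Eif4a2 (log2 ratio 2.20 ± 0.322) and against Eif4a3 (1.59 ± 0.351, SD, n = 2 each).

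Other factor genes had copies with counts too. Across the group, 23 pseudogenes shared at least 5% of the 45-base windows of 14 members, and their summed level was 1494 TPM in replicate 1 and 646 TPM in replicate 2. At 10 TPM or more in both replicates stood 5 of them, Eif4a-ps4, Eif3s6-ps2, Gm7658, Gm6548 and Gm7327. Eif3s6-ps2, a copy of Eif3e, had 1444 and 306 expected counts beside 33962 and 21212 on Eif3e. Gm7658, a copy of Eif3m, had 3920 and 2912 beside 13227 and 9454 on Eif3m, which is 22.9% and 23.5% of the sum. Gm6548, a copy of Eef1a1, had 1497 and 1432 beside 739824 and 753128 on Eef1a1, which is 0.202% and 0.19% of the sum. At the same threshold 7 members, with Eif3j1 in both counts, shared windows with a gene that overlaps them. For 6 of these the overlap is on the opposite strand, and no source used here gives the use of strand in counting, so their values are uncertain. The seventh, Eif4e3, was at 0. No detected member had a posterior SD above 3 times its counting error, against 0.627% of detected protein-coding genes. Eif4a1 stood at 1.93 and 1.89 times, so this measure does not show that reads of near-identical genes were assigned rightly.

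**Figure D3:**
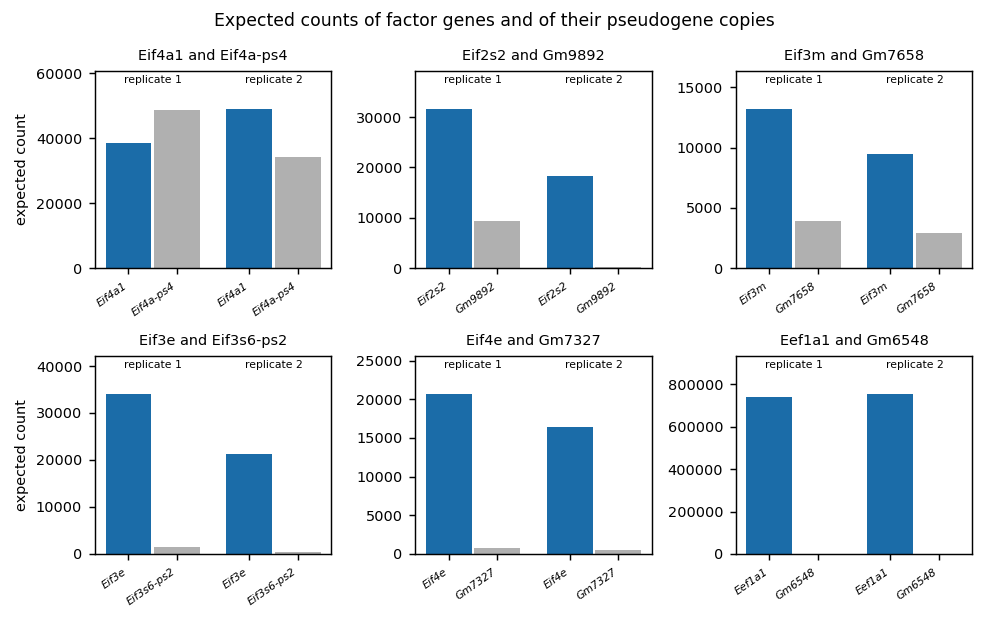
Expected counts of 6 factor genes (blue) and of a processed pseudogene that shares sequence with each (grey) in replicate 1 and replicate 2, with a separate axis from 0 for each pair. The grey bar exceeds the blue one for Eif4a1 in replicate 1 alone, and the bar of Gm9892 nearly vanishes in replicate 2.

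The cap-binding group was carried by Eif4e and Eif4e2. Eif4e, the cap-binding subunit of eIF4F, had 158 and 98.2 TPM, and Eif4e2, a homolog that represses bound mRNAs, had 144 and 167 TPM. The sign of their ratio changed between replicates (log2 ratio -0.32 ± 0.63, SD, n = 2), so neither was shown to be higher. Eif4e3 and the oocyte-type Eif4e1b were at 0. With 3 counts per library as the floor, Eif4e was at least 4761-fold above Eif4e3. The same floor gave 1790-fold for Eif4e1b, but this is not a firm lower limit. The posterior mean TPM of Eif4e1b was 0.28 and 0.22, with upper bounds of 0.47 and 0.37. These lie above its floor of 0.070 and 0.055 TPM. By posterior means the log2 ratio of Eif4e over Eif4e1b was 8.45.

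Among the repressors that bind eIF4E when mTOR signalling is low, Eif4ebp1 led with 168 and 288 TPM. Eif4ebp2 had 71.5 and 145 TPM, and Eif4ebp3 had 1.99 and 3.64 TPM. The excess of Eif4ebp1 over Eif4ebp2 stayed within the limit (log2 ratio 1.11 ± 0.169), while that over Eif4ebp3 was 78.8-fold (6.30 ± 0.0446, SD, n = 2 each). The 3 genes kept their order in both replicates and all were higher in replicate 2. Eif4enif1, which shuttles eIF4E into the nucleus, had 88.3 and 76.6 TPM.

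The eIF4G scaffolds join eIF4E, eIF4A and eIF3. The highest of them was Eif4g2, with 759.7 and 689 TPM, which encodes a protein without the eIF4E-binding part that serves cap-independent initiation. Eif4g1 had 290 and 323 TPM, and Eif4g3 had 40.7 and 47.0 TPM. Eif4g1 exceeded Eif4g3 by 6.98-fold (log2 ratio 2.80 ± 0.0362, SD, n = 2). Eif4g2 over Eif4g1 was 2.37-fold, just inside the limit, in the same direction in both replicates. For the joining of the large subunit, Eif5b had 117 and 50.6 TPM, and Eif6, which keeps the large subunit apart until it is ready, had 203 and 316 TPM, so their order held but their distance did not.

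Factors of later and parallel steps, which are not members, were lower as groups. Of 19 genes for termination, recycling and regulation, 18 were detected (all but Gspt2), with a median of 90.4 TPM. Their highest was Pabpc1, the poly(A)-binding protein that contacts eIF4G, with 3953 and 1970 TPM. All 9 mitochondrial factors were detected, with a median of 27.5 TPM. Tufm, the mitochondrial counterpart of eEF1A, had 145 and 206 TPM, far below Eef1a1.

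Much of the TPM of some factor genes lay on transcripts annotated as noncoding. Over the 36 detected members with several transcripts, protein-coding transcripts held 70.4% and 74.4% of TPM and 86.6% and 87.9% of expected counts. Of TPM, retained introns held 7.38% and 13.0%, processed transcripts 17.9% and 7.24%, and nonsense-mediated decay transcripts 4.13% and 4.70%. Of 58 detected members, 48 had most of their TPM on protein-coding transcripts in both replicates. Those with only 1 transcript, a coding one, met this by construction. No share over all detected protein-coding genes is given beside it. Eif5b had 21.1% and 29.3% of its TPM on coding transcripts, since the retained-intron model Eif5b-202 held 78.7% and 70.5%. Eif4a2 had 39.1% and 30.3% of its TPM but 59.2% and 52.2% of its expected counts on coding transcripts. The count treats as noncoding 6 transcripts that had no name in the annotation, and Eif2b4, with 20.1% and 14.3% on coding transcripts, has its leading transcript among them.

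The most abundant transcript was the same in both replicates for 26 of 36 detected members with several transcripts (72.2%), against 78.2% of detected protein-coding genes of this kind. The 10 others were Eef1b2, Eef1d, Eef2k, Eif1, Eif2a, Eif2b1, Eif2b2, Eif4enif1, Eif4g2 and Eif4g3. By expected counts of transcripts, the leading one was the same for 31 members, and no share of all genes by expected counts is given beside it.

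Some of the largest shifts in share lay on short models. In Eif1, the processed transcript Eif1-202 of 383 bases held 73.8% of the TPM in replicate 1 and 23.2% in replicate 2, and the coding Eif1-201 held 24.9% and 73.2%. On coding transcripts alone Eif1 had 376 and 504 TPM, higher in replicate 2, the opposite of the gene's total. In Eif1ax, the retained-intron model Eif1ax-202 of 416 bases held 54.9% and 83.4% of the TPM. The coding model Eif1ax-201 of 5172 bases held the rest, and coding transcripts took 91.9% and 73.3% of the expected counts. Eif1 and Eif1ax were the 2 members whose mean transcript length differed by 1.5-fold or more between replicates.

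Shares also moved within other members. Eif4g2-203, a coding model of 742 bases, held 0.34% of the gene's TPM in replicate 1 and 47.2% in replicate 2. Eef1d-217 held 49.9% and 3.41%, while Eef1d-207 held 24.4% and 67.8%. In Eef1b2, coding transcripts held 57.9% and 28.3%, and nonsense-mediated decay models most of the rest. On coding transcripts alone the log2 ratio of Eef1d over Eef1b2 was -0.10 ± 1.08 (SD, n = 2). The leading transcript of Eef1a1, Eef1a1-201, was steady at 70.1% and 69.1%, while the processed transcript Eef1a1-204 held 26.1% and 8.55% and the retained-intron model Eef1a1-203 held 2.35% and 21.95%. Eif5 divided its TPM between Eif5-202 with 54.2% and 51.2% and Eif5-201 with 45.8% and 48.8%, both coding and both steady.

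**Figure D4:**
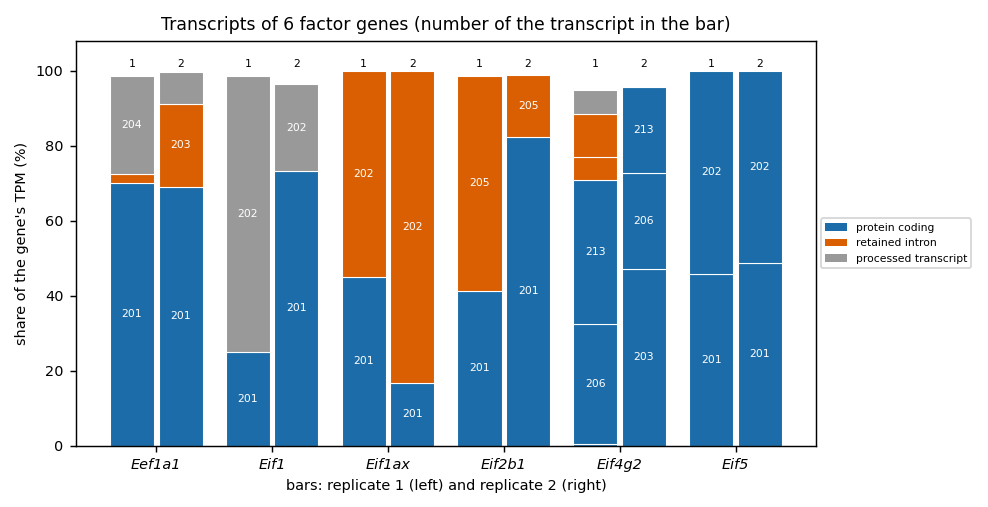
Share of each gene's TPM by transcript for Eef1a1, Eif1, Eif1ax, Eif2b1, Eif4g2 and Eif5 in replicate 1 (left bar) and replicate 2 (right bar), coloured by annotated transcript type, with transcripts of a mean share under 3% not drawn. The bars of Eif5 are alike, while Eif1-202 holds 73.8% in replicate 1 and 23.2% in replicate 2.

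Between the replicates, factor genes differed about as often as other genes. Rounded expected counts were compared by an exact conditional binomial test with Benjamini-Hochberg adjustment over 15251 genes, which compares 2 libraries and counts only sampling error. At an adjusted p under 0.05 and at least 2-fold, 11 of 59 tested members were called (18.6%), against 19.5% of all genes tested and 14.2% of detected protein-coding genes. The median absolute log2 ratio was 0.56 for the members and 0.55 for detected protein-coding genes. Higher in replicate 1 were 9 members, Eif1ax, Eif5, Eif2s2, Eif2a, Eif3e, Eif3j2, Eif4a2, Eif5b and Eef1akmt2, where 11.5% of all genes were called in this direction. Higher in replicate 2 were Eif4ebp2 and Eef1akmt3, where 8.0% of all genes were called. Log2 ratios of replicate 1 over replicate 2 ran from -1.10 for Eef1akmt3 to 1.32 for Eif1ax, with expected counts of 38166 and 19342 for Eif1ax.

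The GC content of transcripts moved with these differences. Across the 59 members, the log2 ratio of replicate 1 over replicate 2 had a Pearson correlation of -0.83 and a Spearman correlation of -0.78 with the GC content of the longest transcript, and over 10039 detected protein-coding genes Pearson's correlation was -0.83. The 9 members called higher in replicate 1 had 38.7% to 43.7% GC, and the pair called higher in replicate 2 had 50.5% and 52.4%. These correlations are across genes of the same 2 libraries. With the GC trend over all genes removed, the median absolute log2 ratio of the members was 0.29, and 2 members were called, Eif3i at -1.16 and Eef1akmt3 at -1.01, against 11 before. That is 3.39% of the members and 7.91% of all genes with a GC value. Eif3i, the WD-repeat subunit of eIF3, had 14508 and 34639 expected counts and 47.6% GC, and its ratio before removal was -0.91.

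**Figure D5:**
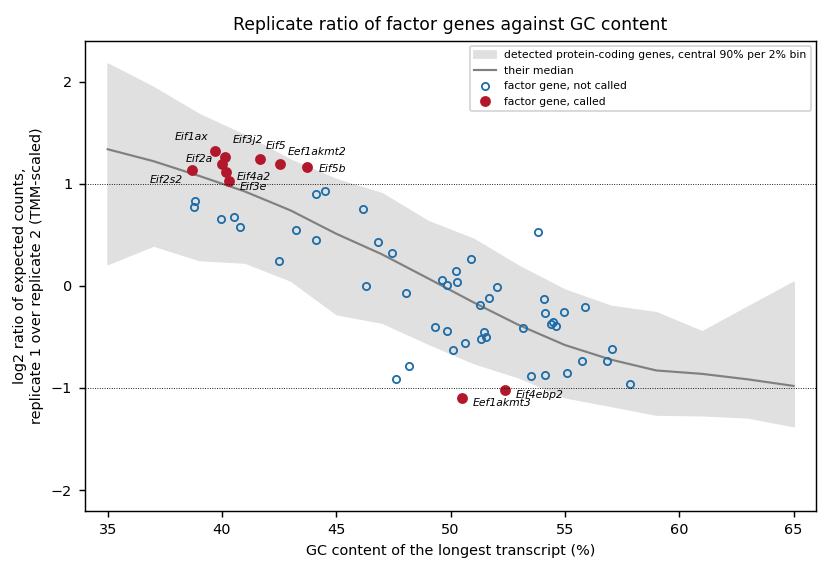
Log2 ratio of expected counts of replicate 1 over replicate 2 (TMM-scaled) against GC content of the longest transcript for 59 factor genes, with the median and central 90% of detected protein-coding genes in grey and dotted lines at a 2-fold difference. Called members higher in replicate 1 lie at the left between 38.7% and 43.7% GC, along the grey trend.

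Promoter sequences gave a feature that the choice of genes did not use. RefSeq promoters of the GRCm38.p6 build, from 250 bases before to 50 after each start, were matched for 46 of the 62 members and gave 60 promoters. The letters CACGTG, the E-box that Myc and related factors are known to bind and which reads alike on both strands, occurred in 14 promoters of 12 members (23.3%). They occurred in 7.15% of all 32851 promoters, in 10.3% of those of detected protein-coding genes and in 11.9% of those of genes at 100 TPM or more. The stretches below are from 4 members with very different roles, with the E-box in capitals. They are Eef2 (chr10:81176561-81176620, plus strand), Eif5a (chr11:69921428-69921487, minus strand), Eif4e (chr3:138527177-138527236, plus strand) and Eif4g1 (chr16:20672646-20672705, plus strand). Those of Eif5a, Eif4e and Eif4g1 lie inside the gene by its GENCODE coordinates, upstream of a RefSeq start further in. The E-box shown for Eif5a lies 74 and 185 bases before different starts, so it counts in more than 1 promoter.
Eef2: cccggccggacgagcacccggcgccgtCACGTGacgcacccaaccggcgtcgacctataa
Eif5a: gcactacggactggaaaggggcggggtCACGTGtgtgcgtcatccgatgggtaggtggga
Eif4e: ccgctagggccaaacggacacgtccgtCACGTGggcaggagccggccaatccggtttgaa
Eif4g1: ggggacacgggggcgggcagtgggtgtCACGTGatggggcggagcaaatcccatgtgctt
The other members with the letters were Eef2k, Eif1b, Eif3a, Eif3f, Eif3k, Eif4a1, Eif4h and Eif5a2. On both strands, the TATA letters TATAAA occurred in 6.67% of members' promoters, against 13.6% of all and 6.2% of those of detected genes. CCAAT occurred in 23.3%, against 37.4% of all and 38.7% of those of detected genes. AGATAA, letters that the erythroid factor GATA1 is known to bind, occurred in 1.67%, against 11.2% of all and 6.36% of those of detected genes. The motifs were chosen after the sequences were seen, promoters of 1 gene can overlap, and a match is a description of the letters and not a site or a cause.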

How the data were processed

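RNA of MEL cells, 1 group of 2 biological replicates per the labels, was read from single ends. Per the file headers and the accompanying text, the authors used mm10 and GENCODE M4. No source used here names the aligner, the quantifier or the strand setting. Deposited expected counts are model estimates in which reads matching several genes or transcripts are divided. Deposited TPM and FPKM values are per effective length and per library size, as the authors' column names say. Deposited percent columns give each transcript's share of its gene, and deposited score columns give the posterior SD of a count.

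GENCODE M21, also on mm10, supplied gene names, types and coordinates. Other features, 0.0574% and 0.131% of counts, were left out, and TPM was not rescaled (they held 2.93% and 6.24% of TPM). Members and lists were chosen with earlier results of these data known. By the naming rule, values are given for the highest and lowest gene of each list of members, all paired genes and members past 2-fold between replicates. For the lists of genes that are not members, the lowest is not always given. Other members were named after their values were seen. For the replicate comparison, expected counts were rounded, a summed count of 20 was required, and library sizes were scaled by TMM (edgeR 4.0.16). The test was an exact conditional binomial test, two-sided, since 1 group of 2 leaves edgeR's quasi-likelihood test no degrees of freedom. Tested on simulated Poisson counts of 15251 genes, it found 90 of 100 genes with a 3-fold change and 97 of 100 with a 5-fold change. It called 3 of 15051 without one. These counts held only the sampling error that the test assumes, with no other spread between replicates and no GC trend. They therefore do not give the rate of false calls in the real libraries. The GC trend was a lowess curve (fraction 0.3). Windows of 45 bases, the length minus the effective length of 44 plus 1, were compared between transcripts on both strands. With n = 2, every SD is imprecise. The closing section gives the alternatives, including size factors from DESeq2 1.42.0. Other software was R 4.3.3, Python 3.11.15 with pandas 2.3.3 and scipy 1.17.1, matplotlib 3.10.9, and statsmodels 0.14.6.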

Additional observations from a re-analysis of the deposited data

How the results depend on the processing

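Detection of 58 members ranged from 57 to 59 over other TPM minimums (0.5 and 5), FPKM, posterior mean TPM and each replicate alone. The members' share of TPM on genes, 3.21%, was 3.65% of expected counts and 3.10% to 3.31% with a replicate left out. The 11 pairs beyond the spread ranged from 10 to 12 with a replicate left out, were 12 with a pseudocount of 1, and, in alternatives chosen after seeing the data, 13 with copies summed and 10 on coding transcripts alone. Eif4e over Eif4e2 was 0.13 without replicate 2 and -0.76 without replicate 1, against -0.32 over both. Without replicate 1, Eif1a over Eif1ad (0.70) and Eef1d over Eef1b2 (-1.06) lost their call and Eif4a1 over Eif4a2 (1.46) gained one, and without replicate 2 Eif4g1 over Eif4g2 (-1.39) gained one. The median spread within the lists by factor (highest over lowest mean TPM of detected members) was 9.95-fold. With a replicate left out it was 8.02-fold to 12.9-fold. Many of these lists hold paralogs or related genes, so this is not the spread within a complex. Over the means, that was 2.00-fold for eIF2B and 6.14-fold for the eIF3 core. Within replicates 1 and 2 it was 2.89-fold and 2.56-fold for eIF2B, and 5.47-fold and 10.8-fold for the eIF3 core. The 11 members differing between replicates (19.5% of all genes) were 11 with DESeq2 size factors (19.7%), 12 with library totals (20.5%), 28 at 1.5-fold (46.0%) and 2 with the GC trend removed (7.91%), and this count cannot be had from 1 library. The same leading transcript was found for 25 members at 10 TPM, 26 with posterior means and 31 by expected counts. Shares of all genes under these alternatives are not given. The causes were not tested. No paired analysis was possible because the study has 1 group. The limit of 2.44-fold describes single genes between libraries, and the 4 pairs within it other than Eif4e over Eif4e2 kept their sign in both replicates.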
